A study of Mus musculus with 6 samples.

Results

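Cells that held RNA of both Fcer1g and Itga2b made up 297 of the 60671 filtered cells (0.490%, exact Clopper-Pearson 95% interval 0.436% to 0.548%). They were selected on the readout itself. A cell of any of the 6 libraries was taken if it had at least 200 genes, at most 2000 unique molecular identifiers (UMIs, each standing for 1 counted RNA molecule), at most 30% mitochondrial UMIs, and at least 1 UMI of each gene. The counts of these 2 genes and the share of such cells are therefore given as descriptions without a test. For comparison, the other filtered cells were split into 4077 cells with Fcer1g only, 2011 with Itga2b only and 54286 with neither gene.

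The libraries came from T-cell progenitors at 3 stages, sorted from cultured bone marrow and grown again for 4 days on OP9-DL1, a mouse stromal line that carries the Notch ligand DL1. All stages carried CD44. DN1 cells lacked CD25, DN2a cells had gained CD25 without Bcl11b, and DN2b cells had gained both. WT mice were C57BL/6 Bcl11b YFP/YFP, and ΔTE mice lacked the timing enhancer, a distal control region of Bcl11b, on both copies. Both genotypes carried the YFP reporter in Bcl11b and were of mixed sex, and the marrow, from mice 2 to 4 months old, was enriched for CD117 (Kit) and pooled over 6 to 8 mice of a genotype. The medium was that of the study's ILC cultures, with IL-7, IL-2, SCF and IL-15, and the methods leave unclear whether Flt3-L was also present in these 4 days. There was 1 library for each of the 6 conditions, and no genotype or start had a replicate.

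Fcer1g encodes the gamma chain that joins the high-affinity IgE receptor and other activating receptors and signals through an ITAM, a short tyrosine motif. It is known from mast cells and basophils, and also from myeloid cells, NK cells and innate lymphoid cells (ILCs). Itga2b encodes integrin alpha IIb (CD41), which pairs with beta 3 (Itgb3) on megakaryocytes and platelets and is also found on early blood progenitors and immature mast cells. A cell with both RNAs could thus belong to several lineages, and the markers of each were read in the same cells.

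On GRCm38, Fcer1g (ENSMUSG00000058715) spans chromosome 1, 171229572 to 171234365, minus strand, and Itga2b (ENSMUSG00000034664) spans chromosome 11, 102453297 to 102470122, minus strand. Their RefSeq promoter windows, 300 bases each around the start of the gene, are shown because these 2 genes define the cells. Capitals mark matches on either strand to ETS words (AGGAAG or else CGGAAG) and RUNX words (TGTGGT or else TGCGGT), names of factor families active in blood cells. The windows are chr1:171234300-171234599 and chr11:102469834-102470133 of GRCm38.p6, both read 5′ to 3′ on the minus strand.
Fcer1g promoter: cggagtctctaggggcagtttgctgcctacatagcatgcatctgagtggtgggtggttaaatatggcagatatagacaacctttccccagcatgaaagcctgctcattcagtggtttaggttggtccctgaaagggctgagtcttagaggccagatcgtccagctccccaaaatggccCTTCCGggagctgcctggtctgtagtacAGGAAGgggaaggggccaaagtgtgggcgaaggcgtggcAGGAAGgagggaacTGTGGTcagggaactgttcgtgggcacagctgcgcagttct
Itga2b promoter: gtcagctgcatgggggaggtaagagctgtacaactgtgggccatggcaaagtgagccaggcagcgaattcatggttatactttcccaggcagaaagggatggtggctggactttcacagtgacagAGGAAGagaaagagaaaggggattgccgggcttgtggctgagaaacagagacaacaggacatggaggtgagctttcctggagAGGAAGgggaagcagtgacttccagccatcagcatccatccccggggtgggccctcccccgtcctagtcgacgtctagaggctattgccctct
The Fcer1g window held 3 ETS words and 1 RUNX word, and the Itga2b window held 2 ETS words and 0 RUNX words. Of the 32851 promoter windows in the table, 46.5% held an ETS word and 22.4% a RUNX word. GATA words (AGATAA, also AGATAG, also TGATAA, also TGATAG) were in neither window and in 29.8% of all windows. These are matches of letters and not sites of binding.

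The selection rested on few molecules. Of the 297 cells, 207 (69.7%) held exactly 1 UMI of each gene, just inside the rule. There were 59 cells with 2 or more Fcer1g UMIs, 39 with 2 or more Itga2b UMIs and 8 with 2 or more of each, and the highest counts in any cell were 4 and 3. Just outside the rule, 83.9% of the cells with Fcer1g only and 90.2% of those with Itga2b only also held a single UMI of their gene.

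The cells with both genes were deeper than the others. Their median was 743 UMIs, against 540 with Fcer1g only, 555 with Itga2b only and 424 with neither gene. Library medians lay between 386 and 485 UMIs per cell, and the mitochondrial limit removed from 2.59% (WT DN2a) to 56.6% (ΔTE DN2b) of the cells with 200 genes. No barcode occurred in more than 1 library. No doublet caller was run, and the part of doublets or of free RNA in the joint detection was not tested. The 2713 stroma-marked cells (at least 3 UMIs of 12 stromal genes, median 580 UMIs) held Fcer1g in 2.69% and Itga2b in 1.55%. Whether these UMIs came from free RNA or from doublets was not tested, so the shares do not measure free RNA alone. The other cells, with a median of 429 UMIs, held them in 7.42% and 3.91%. After every cell was thinned to 300 UMIs, these shares were 0.996% and 0.518% in stroma-marked cells and 4.69% and 2.32% in the others.

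In each starting population, a larger share of the ΔTE cells than of the WT cells held both genes. From DN1 starts, the share was 0.421% in WT (46 of 10925 cells) and 1.06% in ΔTE (109 of 10294 cells). From DN2a starts, it was 0.210% in WT (41 of 19489 cells) and 0.785% in ΔTE (91 of 11594 cells). From DN2b starts, only 3 of 4968 WT cells (0.0604%) and 7 of 3401 ΔTE cells (0.206%) qualified. The share was highest from DN1 and lowest from DN2b starts in both genotypes, although the intervals of DN1 and DN2a overlapped in ΔTE (0.870% to 1.28% and 0.632% to 0.963%), and 207 of the 297 cells came from ΔTE libraries.

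The log2 ratio of the ΔTE share to the WT share was 1.33 for DN1 starts (95% interval of counting error 0.82 to 1.86) and 1.90 for DN2a starts (1.35 to 2.47). For DN2b starts it was 1.77 (-0.36 to 4.35), from 7 and 3 cells. The WT DN2a library stood apart in other measures, with a median mitochondrial share of 13.3% against 20.9% to 23.9% in the other 5 libraries and the lowest median depth. Its stromal list, in cells with neither gene, summed to 1679 CPM (UMIs per 1000000 UMIs) against 1042 CPM in ΔTE DN2a and 267 to 587 CPM in the others, and the part of these differences in the DN2a ratio was not tested. A library took up 3 wells at reverse transcription, which are technical parts of its 1 culture. The wells ran from 0.366% to 0.472% (WT) and 0.942% to 1.13% (ΔTE) for DN1 starts, and from 0.204% to 0.220% and 0.747% to 0.833% for DN2a starts, without overlap. For DN2b starts the wells of the genotypes overlapped. After thinning to 300 UMIs, the ratios were 1.49 (DN1), 1.10 (DN2a, 0.08 to 2.15) and 0.59 (DN2b, from 1 cell in each genotype). With 1 library per condition, genotype and library cannot be told apart.

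**Figure D1:**
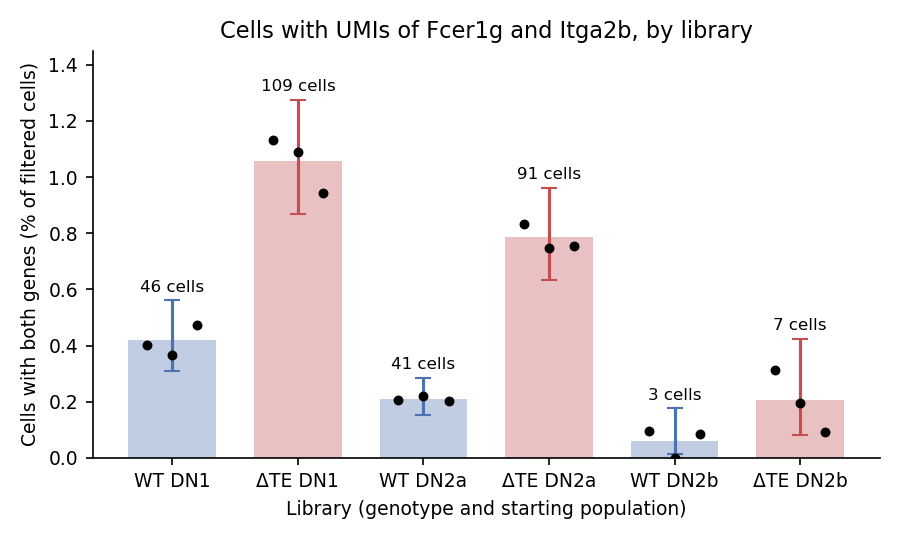
Share of filtered cells with UMIs of both Fcer1g and Itga2b (y axis, percent) in the 6 libraries (x axis). Bars are libraries with 95% Clopper-Pearson intervals, black points are the 3 wells of each library, and the number above a bar counts the cells. ΔTE bars stand above WT bars at each start, at 1.06% against 0.421% for DN1, 0.785% against 0.210% for DN2a and 0.206% against 0.0604% for DN2b.

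Each gene alone also took a larger share of ΔTE cells. For Fcer1g the log2 ratio of shares was 0.83 (DN1), 1.40 (DN2a) and 2.06 (DN2b), and for Itga2b it was 0.55, 1.03 and 1.91. The summed level of Fcer1g was 128, 113 and 42.5 CPM in the WT DN1, DN2a and DN2b libraries and 220, 266 and 189 CPM in the ΔTE libraries. Itga2b ran from 98.1 to 53.6 to 5.49 CPM in WT and from 142 to 95.6 to 23.9 CPM in ΔTE.

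The joint detection of the 2 genes is set beside their separate shares as a description, without a test. Multiplying the shares within each library and each step of 100 UMIs, 238 cells with both genes were expected and 297 were found, a ratio of 1.25 (95% Poisson interval 1.11 to 1.40). By library, observed over expected was 1.18 (WT DN1, 0.86 to 1.57), 1.73 (WT DN2a, 1.24 to 2.34), 1.13 (ΔTE DN1, 0.93 to 1.37) and 1.22 (ΔTE DN2a, 0.98 to 1.49). The DN2b libraries held 3 cells against 0.302 expected (WT) and 7 against 4.37 (ΔTE), so that their ratios rest on single cells. Limiting all cells to 1000 UMIs gave 1.28 (1.11 to 1.46), and without the WT DN2a library the ratio was 1.19 (1.05 to 1.35).

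**Figure D2:**
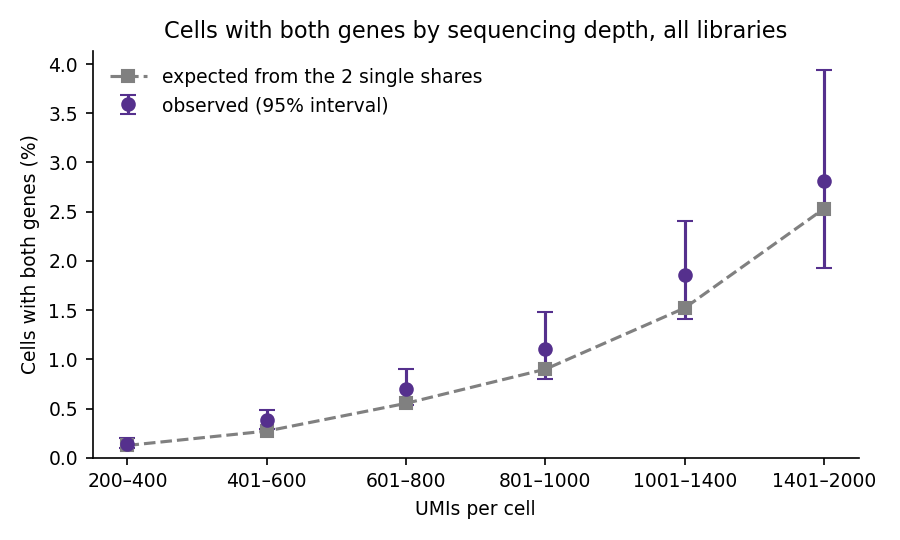
Share of cells with both genes (y axis, percent) in 6 ranges of UMIs per cell (x axis), all libraries together. Purple points are observed shares with 95% intervals, and grey squares are the shares expected from the 2 genes separately. Both rise with depth, the observed share from 0.146% at 200 to 400 UMIs to 2.81% in the deepest range, up to 2000 UMIs, and the observed point lies above the expected one in each range.

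The marker lists were summed over the UMIs of the cells with both genes and set beside the other 3 classes, each weighted to the same mix of libraries, since the lists also differ between libraries. Intervals on these sums are exact Poisson intervals and cover counting error only. A list is described by its counts and not tested.

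The mast list (12 genes) summed to 595 CPM (502 to 700) in cells with both genes, against 569 CPM in cells with neither gene, 671 CPM with Fcer1g only and 606 CPM with Itga2b only. Of its 145 UMIs, 140 were Cpa3, the carboxypeptidase of mast cell granules, which is also transcribed in early blood progenitors. Cpa3 was found in 99 of the 297 cells (33.3%), at 574 CPM, and its log2 fold change against cells with neither gene was -0.04 (SE 0.17, edgeR adjusted p = 0.976). The other 5 UMIs were 2 of the vesicle transporter Slc18a2 and 3 of the transcription factor Mitf. The defining mast cell genes were at 0 UMIs in all 297 cells, namely the proteases Cma1, Mcpt1, Mcpt2, Mcpt4, Tpsab1 and Tpsb2, the receptors Mrgprb1 and Mrgprb2, and the serotonin enzyme Tph1. A count of 0 over these cells allows up to 12.3 CPM (3 UMIs). With neither gene, these genes stood from 0 (Mrgprb2) to 2.53 CPM (Mcpt1), below that level too, so the zeros do not set the classes apart.

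The list of 8 genes shared by mast cells and basophils summed to 12 UMIs (49.2 CPM, 25.4 to 86.0), against 28.3 CPM with neither gene, 31.4 CPM with Fcer1g only and 20.5 CPM with Itga2b only. The UMIs were 7 of Hpgds and 4 of Cyp11a1, enzymes of prostaglandin and steroid synthesis, and 1 of the transcription factor Gata2. Fcer1a and Ms4a2, the alpha and beta chains with which the Fcer1g product forms the IgE receptor, were both at 0, as were Hdc, Ltc4s and Il4. Fcer1a had no UMI in any filtered cell of the 3 other classes either. Ms4a2, Hdc, Ltc4s and Il4 stood at 0.361, 0.858, 1.05 and 2.06 CPM with neither gene, below the level that a count of 0 allows.

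The basophil list held 7 UMIs (28.7 CPM, 11.5 to 59.2), against 20.6 CPM with neither gene and 25.2 CPM with Fcer1g only. Mcpt8, the basophil protease, gave 6 UMIs in 6 cells (2.02%, 0.745% to 4.35%), against 0.578% of the shallower cells with neither gene. Prss34, another basophil protease, gave 1 UMI, the only one in all 60671 cells. That cell was from ΔTE DN1, had 1292 UMIs and 831 genes, and held neither Mcpt8 nor Cpa3. Cd200r3, Cd200r4 and Il3ra were at 0, against 0.598, 1.08 and 4.36 CPM with neither gene, also below what a count of 0 allows. No cell with both genes held 2 genes of the basophil list.

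The megakaryocyte list (16 genes) summed to 46 UMIs (189 CPM, 138 to 252), against 138 CPM with neither gene, 132 CPM with Fcer1g only and 158 CPM with Itga2b only. It consisted of 29 UMIs of Nfe2, a transcription factor of megakaryocytes and red cells, 16 of Itgb3, the partner of the Itga2b product, and 1 of Vwf. The other 13 genes were at 0, with the platelet chemokines Pf4 and Ppbp and the glycoprotein genes Gp1ba, Gp1bb, Gp5, Gp6 and Gp9 among them. Pf4 and Ppbp stood at 0.694 and 0.0291 CPM with neither gene, below the level that a count of 0 allows. Nfe2 stood at 119 CPM in cells with both genes (log2 fold change against neither 0.49, SE 0.31, edgeR adjusted p = 0.720) and Itgb3 at 65.6 CPM (0.04, SE 0.39, adjusted p = 0.993). In the 4 DN1 and DN2a libraries the list ran from 102 to 295 CPM with both genes and from 134 to 149 CPM with neither gene, so the classes overlapped. Of the erythroid list (11 genes), 167 of 168 UMIs were Hbb-bt, described with the tests below, and the globins Hbb-bs, Hba-a1 and Hba-a2 and the factors Gata1 and Klf1 were at 0. With neither gene, 9391 of the 9681 UMIs of the list were Hbb-bt, so the list was mostly Hbb-bt there too. Whether these zeros set the classes apart was not tested.

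Among innate lymphoid genes, the list of ILC precursor genes summed to 1304 CPM (1165 to 1456), level with cells with neither gene (1301 CPM) and below those with Fcer1g only (1494 CPM). Tox, a factor of early ILC and T-cell development, gave 178 UMIs in 115 cells, and Zbtb16, which encodes PLZF of ILC precursors, 114 UMIs in 75 cells (25.3%). Tox was at 730 CPM with a log2 fold change against neither of -0.23 (SE 0.15, edgeR adjusted p = 0.751). Zbtb16 was at 468 CPM with a log2 fold change of 0.29 (SE 0.18, edgeR adjusted p = 0.695). Zbtb16 ran, in the order DN1, DN2a and DN2b, at 297, 340 and 435 CPM in WT and at 471, 590 and 574 CPM in ΔTE cells with both genes, the DN2b values from 1 UMI (WT) and 4 UMIs (ΔTE). Cells with neither gene held 254, 231 and 194 CPM of Zbtb16 in WT and 380, 453 and 398 CPM in ΔTE, so the genotypes stood in the same order there. Id2, Rora, Pdcd1, Il18r1 and Nfil3 had 1 to 11 UMIs each and Cxcr6 had 0. The ILC2 list had 14 UMIs (57.4 CPM, against 78.4 CPM with neither gene), 11 of them Il17rb, with Il1rl1, Il5, Il13, Areg, Klrg1 and Ccr8 at 0. The ILC3 list, with Il23r and Il22, was at 0, against 1.16 CPM with neither gene, which is below what a count of 0 allows.

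The list of NK and ILC1 genes (18 genes) summed to 1883 CPM (1714 to 2063), against 1729 CPM with neither gene, 2173 CPM with Fcer1g only and 1799 CPM with Itga2b only. It was carried by the granzymes Gzma (252 UMIs in 134 cells, 1034 CPM) and Gzmb (72 UMIs, 295 CPM), the granule protein gene Nkg7 (64 UMIs, 263 CPM), the receptor gene Cd160 (37 UMIs, 152 CPM) and Tyrobp (30 UMIs, 123 CPM), which encodes the ITAM adaptor DAP12. Their log2 fold changes against neither gene were 0.02 for Gzma, 0.29 for Gzmb, -0.29 for Nkg7, 0.45 for Cd160 and -0.12 for Tyrobp, none past the threshold (lowest edgeR adjusted p = 0.713). The receptors and factors that define NK cells were at 0 in all 297 cells, namely Il2rb, Eomes, Tbx21, Ncr1, Klrb1c, Klrk1, Klrd1, Klre1 and Klrc1, as were Prf1 and Xcl1.

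The T-lineage list (18 genes, of which 16 could be matched to the counts) summed to 3913 CPM (3669 to 4169), against 4103 CPM with neither gene. The list stood at 4148 CPM with Fcer1g only and 3899 CPM with Itga2b only. Il2ra, which encodes CD25, gave 585 of its 954 UMIs and was found in 72.1% of the cells with both genes. The progenitor list stood at 1148 CPM against 1180 CPM with neither gene, 1191 CPM with Fcer1g only and 1205 CPM with Itga2b only. Kit, the SCF receptor, was at 304 CPM in 65 cells with both genes. The neutrophil list held 1 UMI (4.10 CPM), against 37.3 CPM with neither gene, 71.4 CPM with Fcer1g only and 8.21 CPM with Itga2b only. The dendritic list held 4 UMIs (16.4 CPM), against 62.7, 47.0 and 21.0 CPM in the same order. The granulocyte and monocyte list stood at 209 CPM, against 298, 368 and 229 CPM. The eosinophil list held 1 UMI and the B-cell list 10 UMIs. The stromal list stood at 279 CPM (217 to 354) against 707 CPM with neither gene, 270 CPM with Fcer1g only and 347 CPM with Itga2b only. Of the cells with both genes, 7 (2.36%) were stroma-marked, against 4.80% of those with neither gene. With Fcer1g only and Itga2b only, 1.62% and 1.74% were, so a low stromal share was not particular to the cells with both genes.

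**Figure D3:**
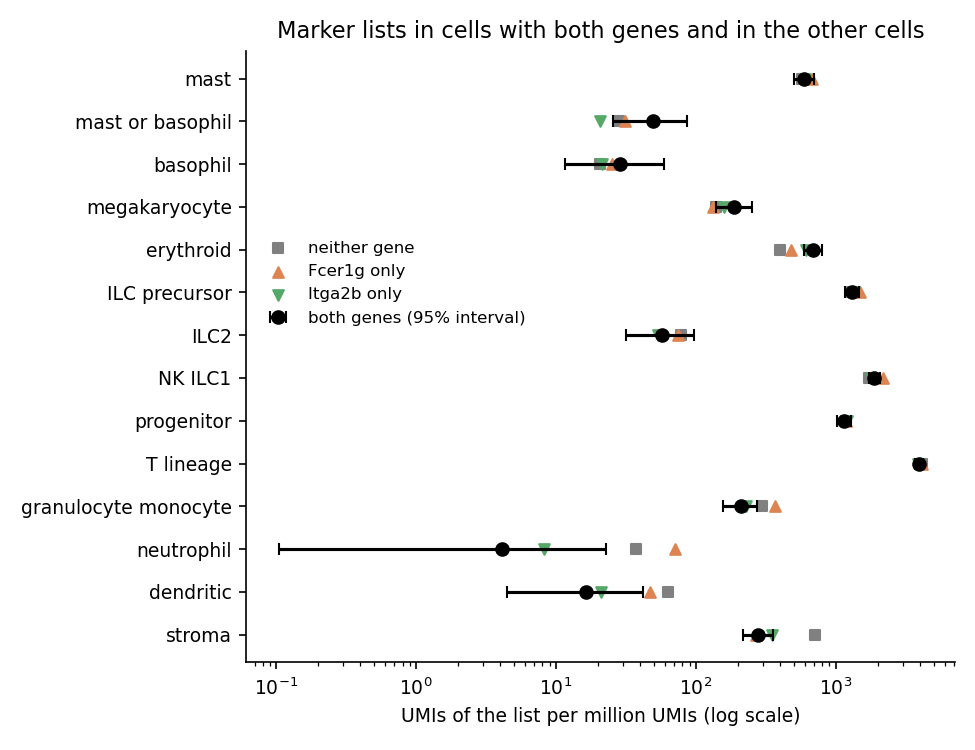
Sum of each marker list in CPM (x axis, log scale) in cells with both genes (black, 95% Poisson interval) and in the other 3 classes, weighted to the same mix of libraries (colored symbols). The mast list (595 against 569 CPM) and the ILC precursor list (1304 against 1301 CPM) lie close to those of the cells with neither gene, and the stromal, dendritic and neutrophil lists lie to the left of it. For the stromal list, the cells with Fcer1g only (270 CPM) and Itga2b only (347 CPM) also lie to the left. The ILC3 (0 UMIs), eosinophil and B-cell lists are not drawn.

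The genes that the rule did not use were then tested with edgeR's quasi-likelihood test on UMI sums per library and class, with the library as a term, over 6407 genes. Against cells with neither gene, 3 genes were higher (0.0468% of the genes tested) and 29 lower (0.453%) at an adjusted p under 0.05. The median of all genes was -0.11 on the log2 scale, and without TMM scaling, where the median was -0.00069, 7 genes were higher and 20 lower. Against cells with Fcer1g only, 0 genes were higher (0.0%) and 2 lower (0.0312%), and against cells with Itga2b only 0 and 0 (0.0%). At an unadjusted p under 0.05, these 2 comparisons gave 83 higher and 331 lower genes and 71 higher and 281 lower genes, and DESeq2 called 0 in each. The smallest adjusted p against Itga2b only was 0.573. Without the ΔTE DN2a library, 1 gene was higher (Hbb-bt) and 1 lower (Bcl11b) against neither gene. DESeq2 called 3 higher genes (Hbb-bt, Sema3c, Ankrd13b) and 3 lower ones (Tmtc2, Camk2d, Foxn3).

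Genes found largely in stroma-marked cells were among the lower set. Of the 29 lower genes, 15 had over 30% of all their UMIs in stroma-marked cells, as did 81 of the 6402 tested genes with an unambiguous symbol (1.27%). Of the 5 tested genes of the stromal list itself, 3 were lower (Col1a1, Col1a2, Sparc). Against Fcer1g only or Itga2b only, 0 of these 5 were called. The 15 genes included the collagens Col6a2 (5 UMIs with both genes, 3698 with neither gene, log2 fold change -2.51, SE 0.51), Col1a1 (-1.92) and Col1a2 (-1.09), the fibronectin gene Fn1 (-2.18), the chemokine gene Cxcl12 (-1.79), the contractile gene Cald1 (-2.87), the proteoglycan genes Bgn (-1.59) and Gpc6 (-2.37), the mesenchymal factor gene Prrx1 (-2.95), the Wnt agonist gene Rspo2 (-2.86) and Setbp1 (-3.52). With stroma-marked cells left out of every class, 9 genes were lower and 1 higher (Hbb-bt), and all 10 were among the 32. Those 9 were Arpp21, Bcl11b, Camk2d, Fam20a, Foxn3, Plekho2, Skap1, Tmtc2 and Xylt1, named after their values were seen.

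Bcl11b, the commitment gene of T cells, whose timing enhancer the ΔTE mice lack (chromosome 12, 107910403 to 108003602 on GRCm38, minus strand), was lower in cells with both genes. In WT libraries the cells with both genes held 80.9 CPM (DN1), 306 CPM (DN2a) and 0 CPM (DN2b), and those with neither gene 252, 548 and 867.9 CPM. In ΔTE libraries the cells with both genes held 32.1, 188 and 144 CPM, and those with neither gene 97.1, 267 and 570 CPM. The cells with both genes were thus lower in 6 of 6 libraries, although the 3 WT DN2b cells had 0 UMIs. The ΔTE DN2b value came from 1 UMI and each DN1 value from 3 UMIs. Counting intervals included the level with neither gene in WT DN2a (140 to 580 CPM), in ΔTE DN2a (103 to 315 CPM) and in both DN2b libraries. The log2 fold change was -1.31 (SE 0.27, edgeR adjusted p = 0.0012), and with stroma-marked cells left out it was -1.41. Bcl11b was called in 15 of 20 alternatives. The call was lost with DESeq2 (log2 fold change -1.24, adjusted p = 0.0551), and in edgeR without the library term (adjusted p = 0.625), at up to 20% mitochondrial UMIs (0.287), at 500 to 1000 UMIs (0.120) and after thinning (0.0656). Against Fcer1g only it was -0.70 (adjusted p = 0.719) and against Itga2b only -0.40 (adjusted p = 0.942). After thinning to 300 UMIs, 2.79% of the cells with both genes held Bcl11b (1.21% to 5.42%), against 5.66% with Fcer1g only, 3.61% with Itga2b only and 9.99% with neither gene. These shares pool the libraries without weighting them to the same mix. Bcl11b also differed between libraries, from 97.1 to 867.9 CPM with neither gene, and the part of the mix in these shares was not tested. Of the 75 cells with both genes and Zbtb16, 10 also held Bcl11b.

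A few other T-cell genes were read in the same fit. Cd3g, which encodes a chain of the CD3 complex, was at 65.6 CPM against 222 CPM with neither gene (log2 fold change -1.29, SE 0.35, edgeR adjusted p = 0.049), but it passed in 3 of 20 alternatives only. These CPM pool the libraries without weighting, whereas the fold change has the library as a term. Against Fcer1g only (93.9 CPM), the log2 fold change of Cd3g was -0.45 (edgeR adjusted p = 0.917). Against Itga2b only (56.0 CPM), it was 0.02 (edgeR adjusted p = 0.999). By library, the cells with neither gene ran from 28.1 CPM (ΔTE DN1) to 536 CPM (WT DN2b). Skap1, an adaptor of T-cell receptor signaling, was at 5 UMIs and 20.5 CPM against 110 CPM, pooled likewise (-2.35, SE 0.52, edgeR adjusted p = 0.0043), and without the ΔTE DN2a library its adjusted p was 0.323. Pooled in the same way, Skap1 stood at 99.0 CPM with Fcer1g only and 32.2 CPM with Itga2b only. Of the 11 T-lineage genes tested, 2 were lower (Bcl11b, Cd3g) and 0 higher, beside 0.453% lower and 0.0468% higher over all genes, with a list median of -0.63 against -0.11 for all genes. Against Fcer1g only and Itga2b only, 0 of the 11 were called in either direction. The list medians there were -0.45 and -0.15, beside -0.11 and -0.10 for all genes. With the 1 gene at 0 UMIs bounded at 3 UMIs, the list medians were -0.35 and -0.0036. Thy1 (-0.63), Notch1 (-0.68), Lck (-0.35) and Il2ra (-0.18) did not pass, and Tcf7, the early Notch-responsive factor, stood at 0.24.

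Tmtc2, a gene for a membrane protein of the endoplasmic reticulum, was the gene called in the most alternatives, 17 of 20. It was at 162, 136 and 0 CPM in WT cells with both genes (DN1, DN2a, DN2b) against 237, 606 and 656 CPM with neither gene. In ΔTE it was at 225, 188 and 144 CPM against 264, 580 and 549 CPM. In these values the gap was smaller for DN1 than for DN2a starts in both genotypes. All cells with both genes held only 46 Tmtc2 UMIs, so each library rests on few, and a dependence on the start was not tested. The log2 fold change was -1.30 against neither gene (SE 0.23, edgeR adjusted p = 0.000105) and -1.18 against Fcer1g only (SE 0.24, edgeR adjusted p = 0.0054). Pooled over libraries without weighting, cells with Fcer1g only held 426 CPM and cells with Itga2b only 256 CPM. Without the ΔTE DN2a library, its adjusted p against neither gene was 0.075.

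Plekho2, the other gene lower against Fcer1g only, had 0 UMIs in the 297 cells, 114 with Fcer1g only and 1114 with neither gene. With 3 UMIs as the floor and the libraries pooled without weighting, it was at least 3.28-fold lower than with neither gene. Its fitted fold change has no bound and is not given. Pde4b, which encodes a cAMP phosphodiesterase, was at 3 UMIs (12.3 CPM) against 68.5 CPM with neither gene, pooled likewise (-2.43, SE 0.64, edgeR adjusted p = 0.038).

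**Figure D4:**
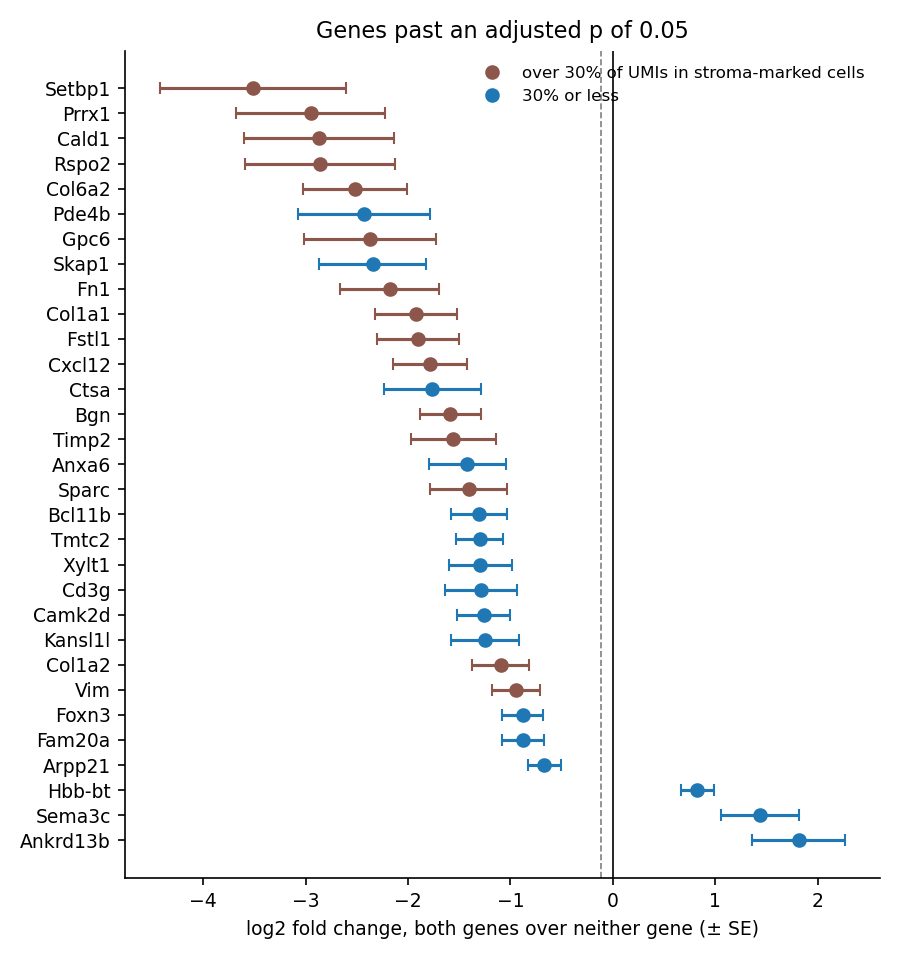
Log2 fold change with its SE (x axis) of the genes (y axis) past an adjusted p of 0.05 in cells with both genes against cells with neither gene. Brown genes have over 30% of their UMIs in stroma-marked cells, the dashed line marks the median of all genes (-0.11), and Plekho2, with 0 UMIs, is not drawn. The points to the right of 0 are Hbb-bt, Sema3c and Ankrd13b.

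Hbb-bt, a beta globin gene (ENSMUSG00000073940, chromosome 7, 103812524 to 103813996 on GRCm38, minus strand), was higher in cells with both genes in 6 of 6 libraries. It gave 167 UMIs in 112 of the 297 cells (37.7%). In WT libraries the cells with both genes held 755 CPM (DN1), 1053 CPM (DN2a) and 871 CPM (DN2b, 2 UMIs) against 378, 378 and 109 CPM with neither gene. In ΔTE libraries they held 685, 536 and 287 CPM (DN2b, 2 UMIs) against 472, 317 and 83.4 CPM. The log2 fold change was 0.83 (SE 0.16, edgeR adjusted p = 0.000296). It was 0.49 against Fcer1g only (adjusted p = 0.418) and 0.15 against Itga2b only (adjusted p = 0.959). Pooled over all libraries without weighting, Hbb-bt stood at 685 CPM with both genes, 606 CPM with Itga2b only, 451 CPM with Fcer1g only and 340 CPM with neither gene. After thinning these classes to 300 UMIs, 19.2%, 16.0%, 12.0% and 8.76% of their cells held it, again without weighting. Choosing the cells anew after thinning left 87 of them, with a log2 fold change of 0.21 (edgeR adjusted p = 0.821). Reads of Hbb-bt and its near-identical copy Hbb-bs can be split between them by the counting, and Hbb-bs was at 0 in the cells with both genes. The counts do not tell globin transcripts from other reads of the locus.

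Ankrd13b, a gene for an ankyrin-repeat protein, gave 18 UMIs (73.8 CPM) against 18.7 CPM with neither gene, pooled without weighting. It was higher in 5 of 6 libraries (log2 fold change 1.82, SE 0.45, edgeR adjusted p = 0.022). It had enough counts to be tested in 9 of 20 alternatives and passed in 8 of them. Sema3c, which encodes a secreted semaphorin, gave 23 UMIs (94.3 CPM) against 25.3 CPM (1.44, SE 0.38, edgeR adjusted p = 0.038) but was higher in 4 of 6 libraries only and so falls outside the naming rule.

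**Figure D5:**
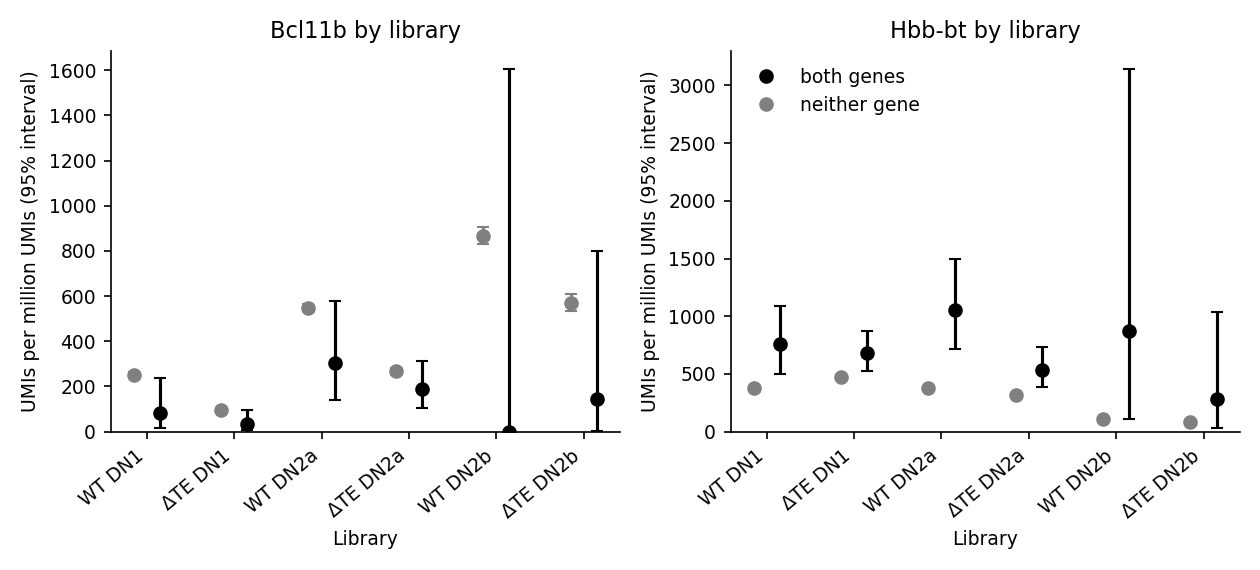
Bcl11b (left) and Hbb-bt (right) in CPM (y axis) in cells with both genes (black) and with neither gene (grey) of each library (x axis), with 95% Poisson intervals. Bcl11b lies lower and Hbb-bt higher in the cells with both genes of 6 of 6 libraries, and the intervals of the DN2b libraries, with 3 and 7 such cells, are wide.

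The signaling partners of the 2 proteins showed no called gene. Of the 20 genes of the ITAM pathway, 14 were tested and 0 passed in either direction, with a median of -0.21. Syk, the kinase that binds ITAMs, was at 180 CPM (log2 fold change against neither 0.38, edgeR adjusted p = 0.743), Lyn at 131 CPM (-0.26, adjusted p = 0.878), and the adaptor genes Lat at 65.6 CPM (-0.62, adjusted p = 0.686) and Gab2 at 427 CPM (0.05, adjusted p = 0.970). Of 12 integrin pathway genes, 12 were tested and 0 passed, with a median of -0.04. Rap1b, a GTPase that activates integrins, was at 205 CPM (0.50, adjusted p = 0.569), and the integrin genes Itga4 and Itgb1 were at 1062 CPM (-0.03) and 197 CPM (-0.14). Of 14 G2/M genes, 14 were tested and 0 passed. These counts stand beside the background of 0.0468% higher and 0.453% lower over all genes.

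Whether the difference from cells with neither gene itself differed between genotypes was tested as an interaction in edgeR over 8215 genes. It called 0 genes (0.0%) in either direction, with 377 at an unadjusted p under 0.05 and a smallest adjusted p of 1. The 3 libraries of a genotype are 3 starts and not replicates. Within the cells with both genes, the mast list stood at 523 CPM in the 90 WT cells (366 to 724) and at 623 CPM in the 207 ΔTE cells (511 to 751). The ILC precursor list stood at 1003 CPM (780 to 1269) and 1423 CPM (1252 to 1611), and the NK and ILC1 list at 2006 CPM (1685 to 2370) and 1834 CPM (1639 to 2046). The ILC precursor list was also lower in WT than in ΔTE within each start for DN1 (917 against 1231 CPM) and DN2a (1019 against 1649 CPM), with intervals that overlapped at both starts, and higher in WT for DN2b (2177 against 1579 CPM, 5 and 11 UMIs). Cells with neither gene were also lower in WT than in ΔTE for this list, at 1045 against 1228 CPM (DN1), 1065 against 1545 CPM (DN2a) and 1359 against 2019 CPM (DN2b). Their mast list was lower in WT too, at 422 against 514, 594 against 710 and 467 against 502 CPM in the same order. Their NK and ILC1 list was likewise lower in WT, at 1292 against 1621, 1609 against 2096 and 1286 against 2204 CPM. In the pooled cells with both genes, the NK and ILC1 list was instead higher in WT, with overlapping intervals.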

How the data were processed

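Libraries were made by sci-RNA-seq3 (combinatorial indexing of fixed material in plates), and the labels give the molecule as nuclear RNA. The authors deposited a raw count of UMIs per gene and barcode, not normalized and before cell filtering. The submitters' processing notes name the build mm9, and the aligner is not given in the sources used here. Gene coordinates and promoters come from GENCODE M21 and RefSeq on GRCm38, by identifier and symbol. The libraries hold 8007395 to 14555100 UMIs.

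A cell needed 200 or more genes and could have up to 2000 UMIs, of which up to 30% mitochondrial, and no doublet caller was run. The members, the gene lists and the tests were chosen with earlier results of these data known. Classes of cells were summed per library over genes seen in 15 or more cells, without Fcer1g and Itga2b. The main test was edgeR 4.0.16 (R 4.3.3; robust quasi-likelihood, TMM, filterByExpr with a minimum count of 10, library and class as terms, 24 sums, Benjamini-Hochberg over all genes tested). The 6 libraries are 6 conditions, and the 24 sums share 1 estimate of the spread. The p-values therefore measure neither a spread of replicate cultures nor whether a difference recurs in each library. Sema3c and Col1a1, for example, were called with the same direction in 4 of 6 libraries. CPM leave the 2 selecting genes out of the total. Where CPM of a single gene are given over all libraries, the libraries are pooled without weighting. Expected cells came from the product of the 2 shares per library and step of 100 UMIs. Intervals are 95% exact (scipy 1.17.1) and cover counting error only, and a count of 0 was bounded at 3 UMIs. Shares by class were also taken after thinning cells to 300 UMIs (seed 0). Stroma-marked cells held at least 3 UMIs of the stromal list.

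Named were all genes of the mast, basophil, megakaryocyte, ILC and NK lists with at least 20 UMIs in the cells with both genes, Bcl11b, and the 10 highest and 10 lowest fold changes past the threshold (5 and 5 against the single-gene classes) with the same direction in at least 5 of 6 libraries. Genes outside this rule were chosen after their values were seen. Alternatives were other cell filters, a stricter rule, thinning, other scaling, DESeq2 1.42.0, no library term and leaving out libraries or wells. Leaving out both DN2b libraries was added after seeing the data. Matplotlib 3.10.9 drew the figures. Some single genes of the lists are not reported here.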

Additional observations from a re-analysis of the deposited data

Results flagged for a closer look

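Cells outside the filters also held both genes. Of the 448 cells with over 2000 UMIs and at most 30% mitochondrial UMIs, 28 held both (6.25%, 4.19% to 8.91%), with a median of 2505.5 UMIs. Their mast list stood at 386 CPM, their basophil list at 61.0 CPM (6 UMIs) and their stromal list at 1433 CPM. By library they made up 10 of 92 ΔTE DN1 cells, 10 of 93 ΔTE DN2a cells, 3 of 80 WT DN1 cells and 5 of 117 WT DN2a cells. Of the 23136 cells over the mitochondrial limit with at most 2000 UMIs, 92 held both (0.398%, 0.321% to 0.487%), 26 of 5949 from WT DN1 and 36 of 4548 from ΔTE DN1. Of the 1252 cells over both limits, 17 held both (1.36%, 0.793% to 2.17%). The part of doublets in these cells was not tested.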

How the results depend on the processing

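No called gene changed direction in any of the 20 alternatives in which it could be tested, and none of the shares or list sums carries a test. No paired analysis was possible because all libraries carry the replicate number 1, beyond the comparison of classes within each library that the test already makes. With at least 300 genes per cell, the shares were 0.621% (WT DN1), 0.397% (WT DN2a), 1.46% (ΔTE DN1) and 1.18% (ΔTE DN2a). With at least 3 UMIs of the 2 genes together they were 0.119%, 0.0770%, 0% (WT DN2b), 0.301% and 0.242%, and the DN2b ratio has no value. After thinning to 300 UMIs they were 0.135%, 0.102%, 0.377%, 0.217% and 0.0340% (ΔTE DN2b), the DN2a log2 ratio was 1.10 and observed over expected 1.47. At most 1000 UMIs gave 0.738% (ΔTE DN1) and 0.609% (ΔTE DN2a), and at most 20% mitochondrial UMIs gave 0.527% (ΔTE DN2b). Thinning gave list sums of 502 (mast), 0 (mast or basophil), 0 (basophil), 1042 (ILC precursor) and 1467 CPM (NK and ILC1). Without mitochondrial genes in the total, the mast, ILC precursor and NK lists stood at 753, 1652 and 2384 CPM. At most 20% mitochondrial UMIs gave 1140 (ILC precursor) and 2126 CPM (NK), and the NK list stood at 2110 CPM at up to 1000 UMIs, 2078 CPM at 500 to 1000 UMIs and 2174 CPM with 3 UMIs of the 2 genes, where the megakaryocyte list stood at 123 CPM. Leaving out 1 library at a time gave 496 to 685 CPM for the mast list and 1152 to 1374 CPM for the ILC precursor list.

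Genes higher against neither gene numbered 7 without scaling, 1 with 300 genes per cell, up to 1000 UMIs or without stroma-marked cells, and 0 without the library term, at 20% mitochondrial UMIs, with 3 UMIs of the 2 genes, after thinning and at 500 to 1000 UMIs. Genes lower numbered 50 without the count filter, 17 (up to 1000 UMIs), 15 (3 UMIs of the 2 genes), 10 (20% mitochondrial UMIs), 9 (up to 2000 genes, and without stroma-marked cells), 7 (thinned), 4 (500 to 1000 UMIs), 3 (DESeq2) and 1 (no library term). Against Fcer1g only, 0 were lower with DESeq2, up to 1000 UMIs or at 500 to 1000 UMIs, and 1 without the library term, up to 2000 genes or without both DN2b libraries. The cause was not tested, except that several of these settings keep fewer cells. Leaving out 1 library at a time gave 1 to 4 higher and 1 to 27 lower genes against neither gene (10 lower without WT DN2a, 16 without WT DN1, 17 without ΔTE DN1, 1 without ΔTE DN2a) and 0 to 1 lower against Fcer1g only (0 without WT DN2a or ΔTE DN2a).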
